A study of Mus musculus with 7 samples.

Results

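The regions described here are noncoding stretches of mouse liver chromatin that were called as hotspots, or stretches of clustered cuts, with both Benzonase and Cyanase but not with DNase I. They were found by joining the hotspots of the 3 enzymes wherever they overlapped by at least 1 bp on chromosomes 1 to 19, and by keeping the joined regions that held a Benzonase and a Cyanase hotspot and no DNase I hotspot. A region was kept when it lay more than 1 kb from every transcription start site (TSS) of a protein-coding transcript and touched no exon of one. This left 5789 of the 94491 joined regions of the whole genome, or 8.50% of the 68140 noncoding regions on chromosomes 1 to 19. The regions were thus chosen by the measured presence and absence of hotspots in these same lists and by their position, so the overlap of the hotspots, their distance from DNase I hotspots and their distance from a TSS are given below as descriptions only. With promoters and exons included, the pattern was found in 9207 regions, or 10.1% of the 90879 regions on these chromosomes.

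The livers came from male C57BL/6 mice aged 8 weeks, with no transgene or drug treatment stated in the labels. Benzonase and Cyanase were each applied at 0.25, 1 and 4 U, 1 sample per dose, to liver that had been frozen and pulverized. DNase I was represented by 1 sample in the labels, made from nuclei that had been purified from fresh liver. The DNase I list itself is marked as pooled under 2 identifiers, and the study describes DNase I tags combined from 2 replicates. How the 1 sample of the labels relates to these was not settled. The enzyme therefore cannot be told apart from the starting material, and each hotspot list was called on pooled tags, so no value has a spread between animals. The 95% intervals below (Wilson for a share, Newcombe for a difference of shares, and a normal interval for a difference of means) cover only the counting of regions and are not tests across animals. As a check of the tissue, a hotspot lay over a TSS of 5 of 5 hepatocyte genes (Alb, Apoa1, Hnf4a, Cps1 and Tat) in all 3 lists. Over the TSS of 4 lymphocyte genes there were 0 Benzonase, 0 Cyanase and 1 DNase I hotspot. The lists differed for other liver cells, with 1 Benzonase, 1 Cyanase and 4 DNase I hits among 5 Kupffer cell genes and 3, 3 and 0 among 5 sinusoidal endothelial genes. They had 2, 4 and 1 among 4 stellate cell genes and 2, 1 and 1 among 5 bile duct genes.

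Open chromatin away from promoters marks mainly enhancers, where transcription factors displace nucleosomes and act on genes at a distance, and insulators, where CTCF binds and helps to fold chromatin into loops. In liver, the enhancers of hepatocyte genes are bound by FOXA, HNF4A, HNF1 and C/EBP factors. CpG islands are GC-rich stretches that escape the usual loss of CpG, and most of them sit at promoters, including those of noncoding RNAs.

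The following sequences, read from the plus strand of mm9, come from regions picked because they held a motif match or a CpG island. They are therefore not typical of the regions. Of all the regions, 4290 (74.1%) held no hepatocyte motif, CTCF motif, GC box or CpG island. Each is a piece of a region with the match to the searched motif letters in capitals. The AP-1 letters (TGANTCA) allow any base in the middle, which is an A in the Per2 piece. For the piece near Stab1 the capitals are CpG dinucleotides. The first set lies near genes of the liver, of development and of imprinting.
Alb, chr5:90899298-90899398, C/EBP motif: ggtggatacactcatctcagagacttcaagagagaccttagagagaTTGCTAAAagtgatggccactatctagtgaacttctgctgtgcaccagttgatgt
Per2, chr1:93354455-93354555, AP-1 motif: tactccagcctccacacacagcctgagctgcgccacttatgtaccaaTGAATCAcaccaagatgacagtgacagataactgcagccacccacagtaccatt
Stab1, chr14:31944154-31944303, CpG: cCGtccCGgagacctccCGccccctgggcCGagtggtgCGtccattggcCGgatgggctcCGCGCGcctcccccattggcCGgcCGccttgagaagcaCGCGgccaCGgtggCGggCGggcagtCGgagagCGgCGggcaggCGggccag
Gata2, chr6:88139582-88139682, CTCF motif: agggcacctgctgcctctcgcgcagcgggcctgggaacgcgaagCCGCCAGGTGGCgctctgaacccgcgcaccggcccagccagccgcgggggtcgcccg
Cdkn1c, chr7:150650839-150650939, GC box: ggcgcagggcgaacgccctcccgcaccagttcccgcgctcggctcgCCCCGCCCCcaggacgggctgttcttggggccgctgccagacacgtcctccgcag

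The second set shows the regions whose CTCF motif match lay closest to the centre, each named by the gene with the nearest TSS.
Alppl2, chr1:88967431-88967531, CTCF motif: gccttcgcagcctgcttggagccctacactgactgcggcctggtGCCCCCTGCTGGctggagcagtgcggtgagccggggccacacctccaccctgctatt
Sccpdh, chr1:181575930-181576030, CTCF motif: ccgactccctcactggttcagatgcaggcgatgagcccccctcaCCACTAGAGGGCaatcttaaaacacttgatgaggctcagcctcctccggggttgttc
Anxa6, chr11:54853345-54853445, CTCF motif: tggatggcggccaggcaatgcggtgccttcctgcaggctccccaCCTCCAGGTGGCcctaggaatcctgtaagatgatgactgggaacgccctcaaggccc

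The Alb piece comes from an intronic region of 449 bp at chr5:90899230-90899678, whose Benzonase hotspot spans all of it and whose nearest DNase I hotspot was 2426 bp away. The Stab1 piece has 20 CpG in a GC content of 78%, from a region of 1427 bp that holds 844 bp of CpG island. The Gata2 and Cdkn1c pieces come from regions with 520 and 422 bp of CpG island and GC contents of 64.6% and 69.1%. None of the 3 CTCF regions overlapped an island, and their GC contents were 58.2%, 57.5% and 52.9%.

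Most of the regions were compact and simple in structure. Of the 5789 regions, 5679 were made of 1 Benzonase and 1 Cyanase hotspot and 110 of more than that. The median width was 594 bp (quartiles 507 and 680 bp, range 253 to 3022 bp), against 808 bp for noncoding regions with hotspots of all 3 enzymes, 549 bp for those with DNase I alone and 356 bp for those with only Benzonase or only Cyanase. Both enzymes covered a median of 79.4% of a region's length (quartiles 63.6% and 89.4%), and the centres of their hotspots lay a median of 36 bp apart. The hotspots of the 2 enzymes thus shared the larger part of the length in most of the regions, while the lowest shared part was 0.102%. Some overlap was required by the rule.

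Most of the regions had no DNase I hotspot close by. The nearest DNase I hotspot was a median of 7417 bp away (quartiles 1833 and 26561 bp). It lay within 100 bp of 106 regions (1.83%), within 1 kb of 968 (16.7%), within 5 kb of 2446 (42.3%) and within 50 kb of 4903 (84.7%). At the edge of the rule, 12 regions had a DNase I hotspot within 10 bp, the smallest gap being 1 bp, while 2 regions counted with all 3 enzymes overlapped theirs by 10 bp or less. The other edge was the distance to a protein-coding TSS, where the closest region kept lay 1001 bp away and the closest left out 999 bp. One region of 519 bp at chr11:68877055-68877573, which lay 31146 bp upstream of the TSS of the clock gene Per1, was 9 bp from a DNase I hotspot.

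By the rule, all of the regions lay away from protein-coding starts. The nearest protein-coding TSS was a median of 28079 bp away (quartiles 9569 and 80764 bp), against 23066 bp for regions of all 3 enzymes, 31910 bp for DNase I alone and 57422 bp for a single one of Benzonase or Cyanase. Introns of protein-coding genes held 2512 of the regions (43.4%). The intron share was 48.2% in regions of all 3 enzymes (difference -4.83 percentage points, interval -6.25 to -3.40), 46.99% with DNase I alone (difference -3.597 points, interval -5.02 to -2.16) and 35.98% with a single one of Benzonase or Cyanase (difference 7.415 points, interval 5.87 to 8.96). The intronic regions had a DNase I hotspot at a median of 4859 bp, while for those outside introns it was 10517 bp. An exon of another transcript type was touched by 242 regions, and 768 had another region of the same pattern within 5 kb.

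The regions were rich in GC. The mean GC content of the 5789 regions was 53.2% (SD 5.60 over regions), with 5th and 95th percentiles of 43.9% and 62.0%. Regions of all 3 enzymes averaged 47.2% (SD 5.15), a difference of 6.01 percentage points (95% interval 5.85 to 6.17). DNase I alone averaged 42.4%, a difference of 10.8 points (10.63 to 10.95). Regions with a single one of Benzonase or Cyanase averaged 52.8%, a difference of 0.406 points (0.233 to 0.578), the smallest of the 3.

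The high GC content was local. The 5 kb on each side of the regions averaged 45.6%, so that a region exceeded its own flanks by 7.59 points (SD 5.89), and 93.5% of the regions were richer in GC than their flanks. Around regions of all 3 enzymes the flanks averaged 45.02%, a gain of 2.13 points, and 71.5% of regions exceeded their flanks. Regions of DNase I alone were poorer than their flanks by a mean of 0.540 points, and 44.7% exceeded them. The largest gain, 9.46 points, was seen for a single one of Benzonase or Cyanase.

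**Figure D1:**
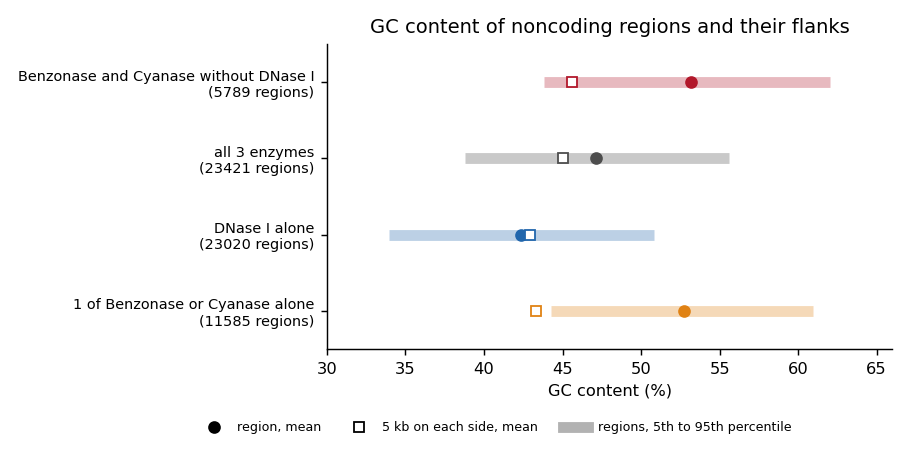
GC content in percent (horizontal axis) of noncoding regions by hotspot class, with filled circles for the mean of the regions, open squares for the mean of the 5 kb on each side, and bars from the 5th to the 95th percentile of the regions. Regions of Benzonase and Cyanase without DNase I averaged 53.2% over flanks of 45.6%, while regions of DNase I alone averaged 42.4%, near their flanks of 42.9%.

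Read the other way, the share of noncoding regions that showed the pattern climbed with GC content. It was 0.654% (67 of 10243) at a GC content of at most 40%, 2.06% from 40% to 45%, 6.08% from 45% to 50%, 14.6% from 50% to 55%, 27.5% from 55% to 60%, 32.9% from 60% to 65% and 36.1% (132 of 366, interval 31.3% to 41.1%) above 65%. Over the same bins DNase I alone fell from 73.9% to 1.37%, and the share with all 3 enzymes peaked at 44.8% between 45% and 50%. By distance to the TSS the share with the pattern moved far less, from 9.53% at 1 to 2.5 kb to 7.43% beyond 500 kb, and by chromosome it ran from 6.98% on chromosome 10 to 10.2% on chromosome 7.

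**Figure D2:**
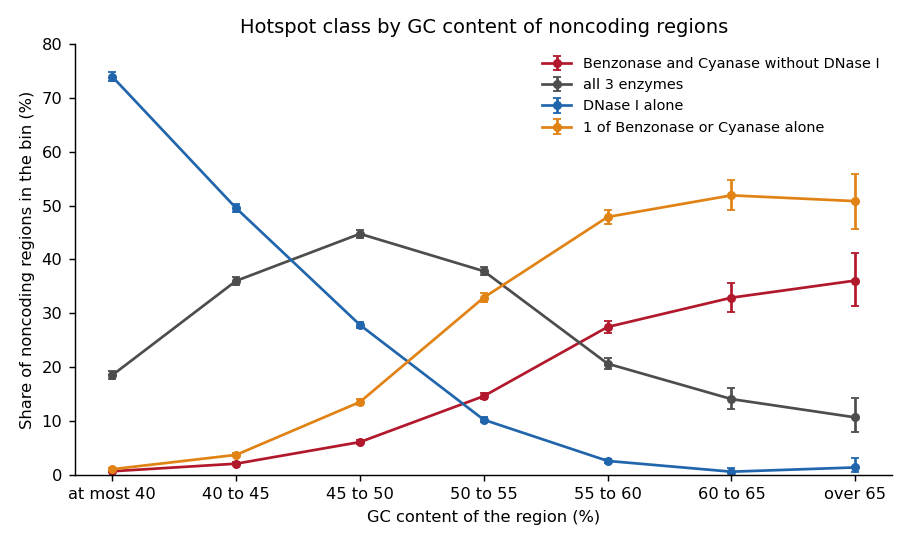
Share of noncoding regions in each hotspot class (vertical axis, percent) by the GC content of the region in percent (horizontal axis), with 95% Wilson intervals as bars. Regions of Benzonase and Cyanase without DNase I made up 0.654% of the lowest bin and 36.1% of the highest, and DNase I alone 73.9% and 1.37%.

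The base steps inside the central 300 bp showed the same contrast with regions that had a DNase I hotspot. The regions held a mean of 55.1 CC or GG steps per 300 bp, against 41.0 with all 3 enzymes, 30.3 with DNase I alone and 52.4 with a single one of Benzonase or Cyanase. AA or TT steps numbered 28.2, against 42.4, 55.5 and 29.97. CG steps numbered 5.70, against 4.56 and 2.83, and 3.92 for a single one of Benzonase or Cyanase. CA or TG steps hardly differed, with 48.7, 48.3, 46.5 and 49.3 in the 4 classes. Unbroken runs of at least 12 A or T were found in 0.639% of the regions, 2.86% with all 3 enzymes, 5.30% with DNase I alone and 0.561% with a single one of Benzonase or Cyanase.

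CpG islands were found in a minority of the regions. An island (at least 200 bp, GC over 50% and a ratio of observed to expected CpG over 0.6) overlapped 336 of the regions, or 5.80% (interval 5.23% to 6.44%), against 13.5% of all 90879 regions with promoters included. Among noncoding regions the share was 2.77% with all 3 enzymes (difference 3.04 points, interval 2.42 to 3.70), 0.104% with DNase I alone and 1.76% with a single one of Benzonase or Cyanase. Wider regions have more chance to touch an island, and the median widths were 594 bp for the regions, 808 bp with all 3 enzymes, 549 bp with DNase I alone and 356 bp with a single one of Benzonase or Cyanase. The part of width in these differences was not tested. The 336 island regions averaged 62.8% GC with a median width of 723 bp. When the regions were split at the quartiles of their GC content, 21.8% overlapped an island above the upper quartile and 0.0691% below the lower one. Islands were more frequent outside introns (8.58%) than in introns (2.19%).

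The longest island overlaps, of 1316 and 1212 bp, were in regions at chr2:18610817-18612132 and chr1:9956978-9958532, which lay 3527 and 4088 bp from the TSS of the predicted genes Gm13334 and Gm10567. A region of 1900 bp at chr6:30123089-30124988 held 1203 bp of island, lay 3352 bp from the start of the sensory-organ microRNA gene Mir183 and had no DNase I hotspot within 33729 bp. Regions upstream of Pop7, a subunit of RNase P (chr5:137951127-137952535, GC 71.04%), and of the transcription factor gene Zfhx3 (chr8:111227899-111229215, GC 73.4%) held 1102 and 1082 bp of island. They lay 7381 and 9329 bp from the TSS of these genes, the first in an intron of another gene. The one upstream of Zfhx3 was 295 bp from a DNase I hotspot. In Iqsec1, which encodes an exchange factor for ARF proteins, an intronic region at chr6:90685880-90687929 held 1036 bp of island and a GC box.

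Some of the islands sat at starts of noncoding transcripts. Of the 336 island regions, 43 (12.8%, interval 9.64% to 16.8%) lay within 1 kb of the start of a noncoding RNA, against 2.77% of the other regions. Over all 5789 regions the number was 194 (3.35%), against 2.45% with all 3 enzymes, 1.13% with DNase I alone and 2.24% with a single one of Benzonase or Cyanase. The largest type was snoRNA with 58 regions (1.002%, against 0.239% with all 3 enzymes, difference 0.763 points, interval 0.526 to 1.06), most of them near copies of 1 gene described below, and the share was 1.11% with a single one of Benzonase or Cyanase (difference -0.112 points, interval -0.419 to 0.228). The 40 regions near a lincRNA (0.691% against 0.824% with all 3 enzymes), the 34 near an antisense RNA (0.587% against 0.436%) and the 15 near a microRNA gene (0.259% against 0.320%) gave differences from all 3 enzymes whose intervals included 0. The start of Airn, the antisense RNA needed for imprinting of Igf2r, lay in a region of 1001 bp at chr17:12934093-12935093, where the Cyanase hotspot spanned all of it and the Benzonase hotspot ran from 12934095 to 12934371. Its GC content was 62.2% over flanks of 46.02%, with 787 bp of island, and the nearest DNase I hotspot was 420 bp away. The lincRNA or antisense genes Gm11837 (chr4:14857097-14858299), Gm3834 (chr1:136542808-136543779) and Gm11915 (chr4:28742192-28743053) also started inside regions, with 654, 749 and 709 bp of island. Gm12284 (chr11:62734377-62735426) started in a region with no island and a GC content of 53.5%. Mir137, a microRNA gene best known from neurons, started in a region of 732 bp with 420 bp of island (chr3:118136351-118137082). Mir199a-2, within the Dnm3os transcript known from mesenchymal cells, started in a region of GC 52.1% without an island (chr1:164147491-164148143), 493 bp from a DNase I hotspot.

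CTCF motif matches and GC boxes were more frequent than in the other noncoding classes. Each motif was searched on both strands in the central 300 bp, and a match is only a string of letters. The 2 windows of the same length that lay 5 kb away served as the local background. They were not matched for GC content, which averaged 45.6% in the 5 kb flanks and 53.2% in the regions. The part of GC content in the differences from the flanks was not tested. CTCF motif matches, the commonest mark of insulators, were found in 325 regions (5.61%), against 2.85% of all 90879 regions. The share was 2.18% with all 3 enzymes (difference 3.44 points, interval 2.84 to 4.09), 2.27% with DNase I alone, 4.00% with a single one of Benzonase or Cyanase (difference 1.62 points, interval 0.942 to 2.33) and 0.666% in the flanks of the regions. Only the central 300 bp were searched, which by itself keeps the matches near the middle. Of 338 CTCF matches, 175 (51.8%) lay within 50 bp of the centre of the region. This compares with 47.8% of CTCF matches in regions of all 3 enzymes and 56.4% with DNase I alone. For C/EBP matches in the regions of the pattern it was 39.6%. Regions outside introns held a CTCF match more often (6.93%) than intronic ones (3.90%).

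The CTCF difference from regions of all 3 enzymes was also found above 45% GC in the central 300 bp, and the other comparisons varied with GC. From 45% to 50% GC the share was 3.76% against 1.98% with all 3 enzymes, from 50% to 55% it was 5.88% against 2.88% (difference 3.01 points, interval 1.93 to 4.23), from 55% to 60% it was 6.29% against 3.68%, and above 60% it was 6.56% against 4.10% (difference 2.46 points, interval 0.469 to 4.45). At or below 45% GC the interval of this difference included 0. Against DNase I alone the interval excluded 0 from 50% to 55% GC (difference 2.86 points, interval 1.502 to 4.22) and included it in the other 4 bins. Against a single one of Benzonase or Cyanase the CTCF share was higher in the 3 bins above 50% GC, for example by 2.54 points from 55% to 60% (interval 1.27 to 3.91). From 45% to 50% GC that interval included 0, and at or below 45% GC the share was lower (difference -2.79 points, interval -4.71 to -0.301). The 3 CTCF sequences printed above belong to this group, and the one upstream of Sccpdh was 905 bp from a DNase I hotspot, while the one downstream of Alppl2 was 34437 bp from any.

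The GC box, the site of SP and KLF factors (GGGGCGGGG), was found in 211 regions (3.645%), against 3.76% of all 90879 regions. Among noncoding regions the share was 1.90% with all 3 enzymes (difference 1.75 points, interval 1.26 to 2.29), 0.465% with DNase I alone, 1.89% with a single one of Benzonase or Cyanase and 0.925% in the flanks. At matched GC content of the window the difference from all 3 enzymes was not uniform. At or below 45% GC it was 0.840 points (3 of 263 regions, interval 0.0697 to 3.002), between 45% and 60% GC the intervals included 0, and above 60% GC the share was lower than with all 3 enzymes, 10.2% against 16.3% (difference -6.10 points, interval -9.13 to -3.12). The sterol element SRE (TCACCCCAC), read by SREBP factors, was found in 55 regions (0.950%, against 0.502% of all regions), compared with 0.423% with all 3 enzymes and 0.889% with a single one of Benzonase or Cyanase, where the interval of the difference included 0. At matched GC content, the SRE difference from all 3 enzymes had an interval clear of 0 only from 45% to 50% GC (0.768 points, interval 0.228 to 1.74). The NRF1 motif (GCGCATGCG) was found in 20 regions (0.345%, against 0.428% of all regions), compared with 0.201% with all 3 enzymes. Above 60% GC the NRF1 share was lower than with all 3 enzymes (difference -0.951 points, interval -2.04 to -0.005). In the other GC bins the interval of that difference included 0. NF1 motif matches numbered 56 (0.967%, against 0.699%), compared with 0.773% with all 3 enzymes and 0.182% in the flanks, and the intervals of the differences from all 3 enzymes and from a single one of Benzonase or Cyanase included 0.

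Before matching for GC content, motifs of the hepatocyte factors were less frequent than with all 3 enzymes or DNase I alone. The C/EBP motif (TTGCNNAA) was found in 546 regions (9.43%), against 17.2% of all regions. It was found in 21.2% with all 3 enzymes (difference -11.8 points, interval -12.7 to -10.9) and in 24.9% with DNase I alone, but in 7.93% with a single one of Benzonase or Cyanase (difference 1.499 points, interval 0.614 to 2.41). In the centre of the regions it was less frequent than in their own flanks, where the share was 12.1%, without matching for GC content. Within the regions the C/EBP share was 15.2% in the lowest quartile of GC content and 5.32% in the highest. The FOXA motif (TGTTTAC) was found in 212 regions (3.66%, against 6.63% of all regions), compared with 8.54% with all 3 enzymes (difference -4.87 points, interval -5.46 to -4.25) and 4.22% in the flanks. The HNF4A motif (CAAAGTCCA) was found in 24 regions (0.415%, against 1.56% of all regions), compared with 2.43% with all 3 enzymes and 0.372% in the flanks. The HNF1 motif (GTTAATNAT) was found in 34 (0.587%, against 1.79%), compared with 2.71% with all 3 enzymes and 0.822% in the flanks. For FOXA, HNF4A and HNF1 the shares with a single one of Benzonase or Cyanase were 3.35%, 0.449% and 0.397%, and the intervals of the differences included 0. In regions of all 3 enzymes the HNF4A share of 2.43% stood over 0.442% in their flanks.

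Since the classes differed in GC content, the comparison was repeated within bins of the GC content of the central 300 bp. The C/EBP share was lower than with all 3 enzymes in all 5 GC bins, for example 10.6% against 16.7% from 50% to 55% GC. The FOXA share was lower in every bin but the one at or below 45% GC, where the interval included 0, with 4.53% against 7.21% from 50% to 55% GC. The HNF4A share was lower in every bin but the one above 60% GC, with 0.486% against 2.13% from 50% to 55% GC. The HNF1 share was lower in the bins from 45% to 60% GC, and the intervals of the other bins included 0. Against DNase I alone, C/EBP was lower up to 55% GC, FOXA from 45% to 60% and HNF4A from 50% to 60%. In the remaining bins their intervals included 0. For HNF1 against DNase I alone the interval included 0 in all 5 bins, for example from 45% to 50% GC (difference 0.123 points, interval -0.513 to 1.16). Against a single one of Benzonase or Cyanase, C/EBP was higher up to 55% GC, HNF4A from 45% to 50% and HNF1 at or below 45%. The intervals of their other bins, and of FOXA in all 5, included 0. Any of the 4 hepatocyte motifs was found in 786 regions (13.6%), against 31.7% with all 3 enzymes, 35.5% with DNase I alone and 11.7% with a single one of Benzonase or Cyanase.

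The AP-1 motif was searched with any base allowed in the middle (TGANTCA). It was found in 443 regions (7.65%, against 10% of all regions). The share was 11.7% with all 3 enzymes, 13.5% with DNase I alone, 7.54% with a single one of Benzonase or Cyanase and 8.52% in the flanks. The E-box (CACGTG), the site of MYC and of clock factors, was found in 328 (5.67%, against 5.99%), compared with 6.46% with all 3 enzymes and 4.04% in the flanks. The ETS motif (CCGGAAGT) was found in 31 (0.536%, against 1.24%), compared with 0.606% with all 3 enzymes, and the cyclic AMP response element CRE (TGACGTCA) in 34 (0.587%, against 0.699%), compared with 0.602%. The ERR motif (TCAAGGTCA) of orphan nuclear receptors was found in 52 (0.898%, against 1.13%), compared with 1.13% with all 3 enzymes, and a pair of nuclear receptor half-sites in 13 (0.225%, against 0.363%), compared with 0.401%. The CCAAT box (CCAATCA) was found in 215 (3.71%, against 4.68%), compared with 4.69% with all 3 enzymes. At matched GC content the ETS share was lower than with all 3 enzymes above 55% GC, and the CCAAT share above 60%. The intervals of their other bins included 0. A CTCF motif, a GC box or an island was found in 780 of the regions (13.5%), against 6.23% with all 3 enzymes, 2.79% with DNase I alone and 7.31% with a single one of Benzonase or Cyanase. Neither these nor a hepatocyte motif were found in 4290 (74.1%), against 63.1%, 62.4% and 81.8%.

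**Figure D3:**
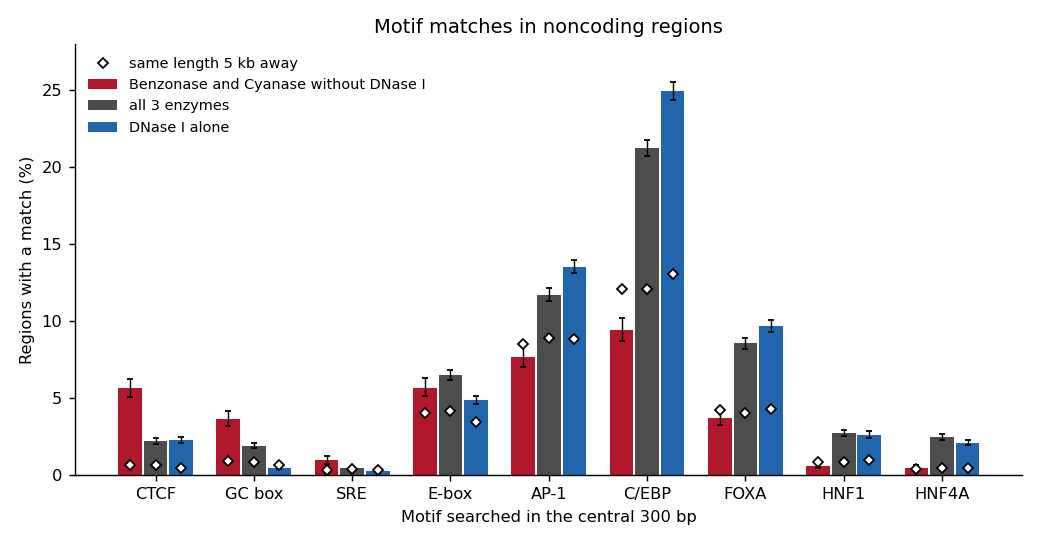
Share of noncoding regions with a motif match in the central 300 bp (vertical axis, percent) for 9 motifs and 3 hotspot classes, with 95% Wilson intervals as bars and open diamonds for windows of the same length 5 kb away. CTCF matches were found in 5.61% of regions of Benzonase and Cyanase without DNase I and 2.18% with all 3 enzymes, and C/EBP matches in 9.43% and 21.2%.

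Repeated sequence was more frequent than in regions with a DNase I hotspot. In 508 regions (8.78%, interval 8.07% to 9.53%) more than 50% of the 24-mers of the central 300 bp were found at more than 1 place in the genome, against 2.12% with all 3 enzymes, 3.79% with DNase I alone and 10.6% with a single one of Benzonase or Cyanase. Tags from such stretches can be placed at several sites, and the part of this in the lack of a DNase I hotspot was not tested. Of the 325 regions with a CTCF match, 4 (1.23%) were of this kind. At least 1 24-mer shared with the mitochondrial genome was found in 19 regions (0.328%), against 0 with all 3 enzymes, 0 with DNase I alone and 2 with a single one of Benzonase or Cyanase. These 19 averaged only 38.6% GC and included the 2 widest regions, of 3022 bp at chr4:79648253-79651274 and 2627 bp at chr2:22442675-22445301, the latter in an intron of Myo3a. In the study, mitochondrial sequence made up more of the tags from frozen tissue than of the DNase I tags from nuclei. The part of this in the 19 regions was not tested.

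Most of the regions near snoRNAs were near annotated copies of 1 small RNA. SNORA17 is a box H/ACA small nucleolar RNA, a class that guides pseudouridylation of ribosomal RNA. The annotation holds 578 copies of it on chromosomes 1 to 19 with a median length of 130 bp. Whether these copies are working snoRNA genes was not tested. SNORA17 was chosen after its values were seen. Of 58 regions within 1 kb of a snoRNA start, 48 were near a SNORA17 copy, on 17 chromosomes. Their GC content was 55.2% (SD 2.39), their median width 657.5 bp and their median distance to a DNase I hotspot 41106 bp. None of the 48 overlapped an island, and 1 was mostly repeated 24-mers. A copy began inside 7 of the 48 regions, and the median distance from a region to the start of a copy was 446.5 bp. The copies below are among those that began inside a region, with the annotated snoRNA in capitals. They are read from the plus strand of mm9, which is the strand of all 3.
SNORA17, chr3:103196836-103196985: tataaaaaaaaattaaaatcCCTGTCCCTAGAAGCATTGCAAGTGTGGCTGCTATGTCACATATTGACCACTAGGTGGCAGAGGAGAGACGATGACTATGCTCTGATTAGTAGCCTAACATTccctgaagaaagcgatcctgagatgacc
SNORA17, chr4:136581579-136581728: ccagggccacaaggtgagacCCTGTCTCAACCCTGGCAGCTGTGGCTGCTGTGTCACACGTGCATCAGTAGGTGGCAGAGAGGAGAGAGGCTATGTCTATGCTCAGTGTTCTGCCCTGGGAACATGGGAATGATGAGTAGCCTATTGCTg
SNORA17, chr6:54924625-54924774: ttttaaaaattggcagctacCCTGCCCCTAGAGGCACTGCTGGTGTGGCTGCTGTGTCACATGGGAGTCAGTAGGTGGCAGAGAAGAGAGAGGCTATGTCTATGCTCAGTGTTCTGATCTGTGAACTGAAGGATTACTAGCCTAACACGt

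The 3 annotated copies shared 61.4%, 66.9% and 79.0% of their bases in pairwise global alignments. The regions lay on 1 side of the copies. Of the 58 regions of the pattern centred within 2 kb of a copy, 57 (98.3%, interval 90.9% to 99.7%) were downstream of its start along its strand, at a median of 875.5 bp. The same was seen for 137 of 141 regions (97.2%) of a single one of Benzonase or Cyanase. It was seen for 15 of 23 (65.2%) with all 3 enzymes and for 2 of 13 (15.4%) with DNase I alone. The mean GC content was 35.5% just before the start of a copy, 49.9% at 50 bp, 53.7% at 250 bp, 51.4% at 1050 bp and 41.4% at 1950 bp downstream. The raised GC content thus ran past the annotated copies, whose lengths were 50 to 150 bp, and most of the 58 region centres lay past them. Of the 578 copies, 47 (8.13%, interval 6.17% to 10.7%) lay within 1 kb of a region of the pattern, 106 (18.3%) of a region with a single one of Benzonase or Cyanase, 22 (3.81%) of one with all 3 enzymes and 5 (0.865%) of one with DNase I alone.

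**Figure D4:**
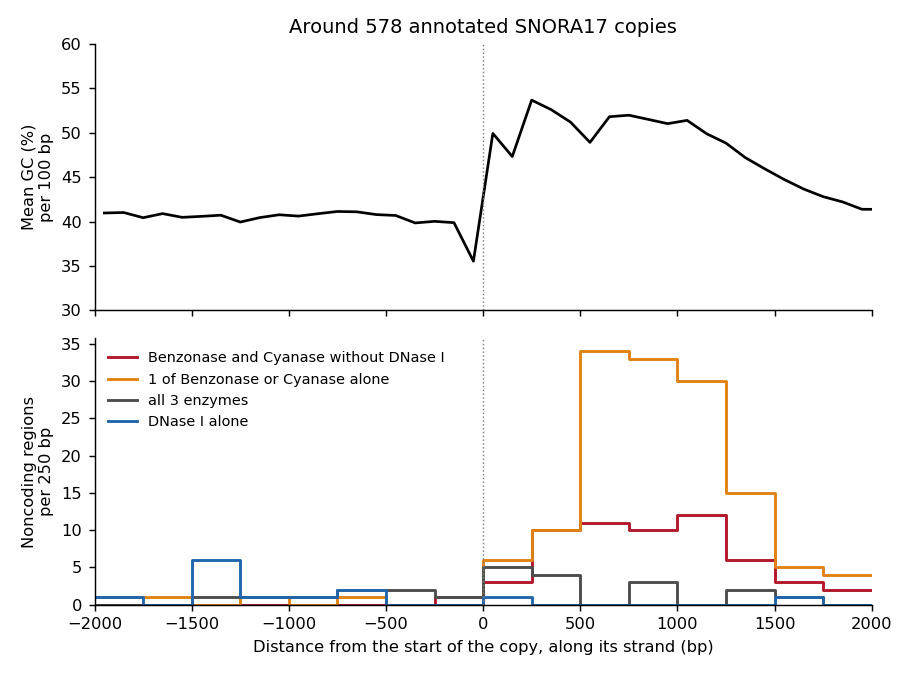
Mean GC content in percent per 100 bp (upper panel) and number of noncoding region centres per 250 bp (lower panel) by distance in bp from the start of the 578 annotated SNORA17 copies, along the strand of the copy. GC content rose from 35.5% just before the start to 53.7% at 250 bp, and 57 of 58 regions of Benzonase and Cyanase without DNase I were downstream of the start.

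The regions were spread over many genes. Among 21416 protein-coding genes on chromosomes 1 to 19, 26.7% had at least 1 region in the gene or within 50 kb of its TSS, with a median of 0 regions. In the lists used here, whose genes were chosen with earlier results of these data known, the number was 19 of 38 secreted liver proteins (median 0.5 regions), 21 of 45 metabolic enzymes (median 0), 15 of 34 transcription factors and nuclear receptors of the liver (median 0), 10 of 20 growth and insulin signalling genes (median 0.5) and 8 of 15 clock genes (median 1). Imprinted genes had a region in 14 of 24 cases (median 1) and developmental transcription factors in 15 of 48 (median 0). Among markers of other liver cells it was 1 of 4 for Kupffer cells, 1 of 5 for sinusoidal endothelium, 2 of 4 for stellate cells, 2 of 5 for bile duct and 2 of 4 for lymphocytes. A region of all 3 enzymes was near 57.5% of all genes, 38 of 38 secreted proteins, 39.6% of the developmental factors and 45.8% of the imprinted genes. Gene lengths were not matched between the lists. Neighbouring genes can share a region, as Alb and Afp did and as Apoa1, Apoa4 and Apoc3 did, so the genes of a list are not independent counts. The intervals of the shares were wide, with 34.9% to 65.2% for secreted proteins, 38.8% to 75.5% for imprinted genes and 19.95% to 45.3% for developmental factors.

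**Figure D5:**
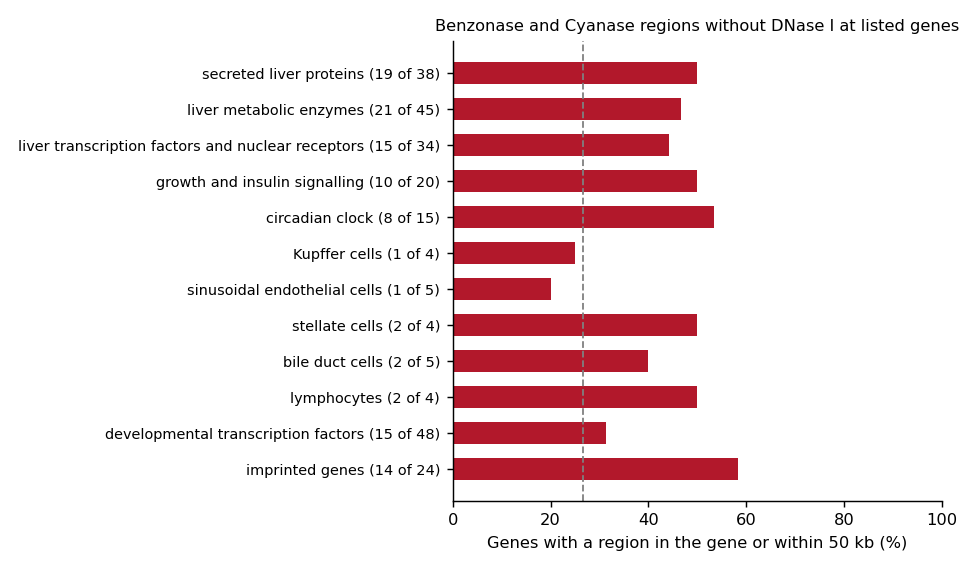
Share of the genes of each list with at least 1 region of Benzonase and Cyanase without DNase I in the gene or within 50 kb of its TSS (horizontal axis, percent), with counts beside the names and a dashed line at the 26.7% of all protein-coding genes. Imprinted genes had the highest share, 14 of 24, and sinusoidal endothelial genes the lowest, 1 of 5.

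Among secreted proteins, the gene of albumin, Alb, held 2 regions in its introns. The one at chr5:90892019-90892650 lay 2104 bp downstream of the TSS and 670 bp from a DNase I hotspot. Its GC content of 41.6% was low for the class, over flanks of 38.7%. Ambp, the precursor of bikunin, held a region 1595 bp downstream of a TSS at chr4:62813177-62813612. Apoh, apolipoprotein H, held one at chr11:108219992-108220737. The widest near a secreted protein gene was a region of 1849 bp at chr11:7102699-7104547, 4914 bp from the TSS of Igfbp1, which binds insulin-like growth factors.

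Ass1, which makes argininosuccinate in the urea cycle, stood out among the metabolic enzymes with 9 regions in its introns. They were at chr2:31337363-31337816, 31348858-31350879, 31354303-31354996, 31358464-31359273, 31359629-31361228, 31364819-31365465, 31366762-31367665, 31368242-31368962 and 31369094-31369714. Their widths ran from 454 to 2022 bp, and their GC contents from 52.9% to 56.4%. In 8 of the 9 these were above the flanks, and in the first region the GC content of 52.86% was just below flanks of 53.03%. DNase I hotspots were 457 to 17675 bp away. None of the 9 held an island or a repeated 24-mer in its centre. The gene spans 50.5 kb, so these 9 correspond to 178.3 per megabase, and 3 regions of all 3 enzymes lay in its introns.

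Other enzymes of liver metabolism held fewer. Cps1, which starts the urea cycle, held 4 regions of low GC (41.2% to 47.3%) that were 34934 to 64908 bp from any DNase I hotspot. Cpt1a, which brings fatty acids into mitochondria, held 4 of higher GC (54.8% to 61.1%), and 1 of these at chr19:3372161-3372849 had 97.8% repeated 24-mers. Acacb, which makes the malonyl-CoA that inhibits Cpt1a, held 3, the one at chr5:114605851-114606298 only 119 bp from a DNase I hotspot.

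Among transcription factors, Rxra, the partner of many nuclear receptors, held 6 intronic regions, none with an island, at 338 to 3949 bp from a DNase I hotspot. Gata4, a factor of liver and heart development, had 4, of which chr14:63870293-63870928 and chr14:63874366-63875213 overlapped islands by 212 and 443 bp. Rora and the xenobiotic receptor gene Nr1i2 followed by number. In growth signalling the insulin-regulated factor gene Foxo1 had 3 and Igf1, Socs3 and Egfr had 2 each. The region of 1080 bp downstream of Socs3, an inhibitor of cytokine signalling, held 528 bp of island (chr11:117810497-117811576).

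Of the clock genes, Nfil3 held a region with 448 bp of island 2016 bp from its TSS (chr13:53073487-53074426), 394 bp from a DNase I hotspot. Nr1d1 and Per1 had 2 regions each outside the gene, with GC contents of 55.9% to 61.5%. Per2 held the region of the AP-1 sequence printed above, 1127 bp downstream of a TSS and 586 bp from a DNase I hotspot, with a GC content of 48.3% that was below its flanks of 50.6%.

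Genes of other cell types and of development had regions as well. Clec4f, a lectin of Kupffer cells, had 1 downstream of the gene with an SRE motif (chr6:83593032-83593723). Stab1, a scavenger receptor of sinusoidal endothelium, had the CpG-rich one shown above. Reln and Dcn, matrix genes of stellate cells, held 2 and 1 in their introns. Repeated 24-mers made up 94.95% of the centre of 1 Reln region, 434688 bp from the TSS, and 76.9% of the Dcn one. Krt19 and Krt7 of bile duct cells and Cd79a and Ptprc of lymphocytes had 1 each, all but the Ptprc one outside the gene. The regions of Krt19, Krt7 and Cd79a lay 21956, 35756 and 30041 bp from the TSS. The centre of the Ptprc region had 42.6% repeated 24-mers. Gata2, a factor of blood progenitors, had 3 upstream. Hoxd3 and Hoxd10 shared 2, and Lhx2 had 2 downstream, with GC contents of 59.4% and 62.4%.

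Among imprinted genes, the potassium channel gene Kcnq1 held 4 intronic regions, at GC contents of 54.2% to 58.0% and 8530 to 42214 bp from a DNase I hotspot. Dlk1 had 2 upstream, 1 with a CTCF motif (chr12:110675937-110676435) and 1 with a GC box (chr12:110674465-110675100), with DNase I hotspots 74031 and 75366 bp away. Inpp5f and H19 had 2 each. The closest region to Meg3, a maternally expressed noncoding RNA gene, lay 118 bp from its TSS.

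Counted by introns alone, 1788 genes held a region, 1317 of them 1 and 156 of them 3 or more. The 10 genes with the most were Gm20388 with 34 in a span of 4435 kb, Fgfr2 with 13 in an annotated span of 3009 kb, Ass1 and Iqsec1 with 9, Rad51l1 with 8, Tns1 and Wwox with 7, and Sulf2, Rxra and Fkbp5 with 6. Long spans went with the high counts in Gm20388 and Fgfr2, where regions of all 3 enzymes numbered 129 and 53. Per megabase the counts were 59.8 in Iqsec1, 72.7 in Sulf2, which trims sulphate from heparan chains, 69.4 in Rxra and 50.7 in Fkbp5, a glucocorticoid target that encodes a chaperone partner. Sulf2 held 4 regions of all 3 enzymes and Fkbp5 6. Lpin1 and Gsta3, named after their values were seen, held 5 and 4 regions of the pattern against 0 and 1 of all 3 enzymes. Lpin1 encodes a phosphatidate phosphatase of lipid synthesis and Gsta3 a glutathione transferase of detoxification.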

How the data were processed

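Tags were mapped by the authors to mm9 (Eland or Bowtie) and combined over the samples of a nuclease before hotspot calling at a 0% false discovery rate. A list per nuclease was deposited, marked as input adjusted and not merged. The lists hold 60910 Benzonase, 57675 Cyanase and 72286 DNase I hotspots, which differ in number from those the study counts, and the reason was not settled. Each holds positions only, with no count, score or tag density, so the depth behind a hotspot is unknown. All comparisons are therefore of regions.

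Hotspots that overlapped by at least 1 bp were joined, and regions were placed on GENCODE M1 and the mm9 sequence. Coordinates count from 1. CpG islands were found as segments scoring 17 per CpG and -1 per other base. Flanks were 5 kb on each side, motifs were matched to fixed letters in the central 300 bp on both strands, and repeated sequence was counted as 24-mers. CTCF, NF1 and nuclear receptor patterns are given by name.

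Named genes are the up to 4 genes of each list with the most regions, the 10 genes with the most intronic regions, and the 5 lincRNA or antisense genes starting in the widest regions. Sequences were chosen as the listed gene's closest region with a motif or island and the 3 best centred CTCF matches, of which 8 are printed. The members and lists were chosen with earlier results of these data known. Alternatives were other overlaps, annotations, windows, islands and flanks. Leaving out regions of mostly repeated 24-mers was chosen after the data were seen. The scripts used numba 0.67.0, pandas 2.3.3, scipy 1.17.1 and numpy 2.4.6 under Python 3.11.15, and figures were drawn in matplotlib 3.10.9. Joining, TSS distances, island and motif searches, intervals and 24-mer counts were tested on simulated data or known answers. The other steps, among them GC content and the counts at genes, were not tested in this way.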

Additional observations from a re-analysis of the deposited data

Results flagged for a closer look

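Chromosome X was not part of the regions described above. Of its 2779 noncoding regions, 235 (8.46%, interval 7.48% to 9.55%) held Benzonase and Cyanase hotspots and no DNase I hotspot. It is listed because this chromosome lies outside the main measurement and the pattern was found there. On chromosomes 1 to 19 the share was 8.50%, which lies inside that interval.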

How the results depend on the processing

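No paired analysis was possible because each list was called on pooled tags, and no replicate could be left out for the same reason. Of 90 alternative values, 16 shares or means left the 95% interval of the reported value, and they are given here. Of the other 74, shares and means stayed within that interval, the number of regions stayed within 1.5 times of the reported number, and differences kept their sign with an interval clear of 0, although some of them moved outside the reported interval. Requiring an overlap of 50% of both hotspots gave a share of noncoding regions of 9.09%, a mean GC content of 51.9%, a CTCF share of 4.88% and a FOXA share of 4.55%. After the narrowest hotspots, those below the lower quartile of width in each list, were dropped, the values were 8.85% for the share, 52.2% for GC content, 7.02% for CpG islands and 4.94% for FOXA. Without regions with a DNase I hotspot within 1 kb, the intron share was 41.6% and the mean GC content 53.3%. The central 150 bp had a mean GC content of 55.9%. The island share was 5.08% with the TSS and exons of all transcripts in the rule, and 2.85% with islands of at least 500 bp. Searching the whole region in place of its centre gave 7.24% for CTCF, 7.13% for FOXA and 6.43% for the GC box. The cause of these shifts was not tested. The difference in GC content from regions of all 3 enzymes ran from 4.80 to 6.60 points, from those of DNase I from 9.09 to 13.2 points, from flanks of 50 kb it was 8.44 points, and the differences from all 3 enzymes ran from 1.70 to 3.96 points in CpG islands and from 2.68 to 3.89 points in CTCF. The number of regions ran from 4005 to 6697. The lists give no tags, so a region without a DNase I hotspot cannot be told apart from one just under the threshold of the caller.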
